A study of Mus musculus with 4 samples.

Results

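The 9 genes described here encode receptor chains through which blood-forming cells sense cytokines: Il7r, Il2rg, Csf2ra, Csf2rb, Csf2rb2, Csf3r, Il3ra, Il6st and Ifngr1. They were taken as a list of named genes, and all 9 were among the 32285 genes of the matrices. The data were single-cell libraries of mouse LSK cells, which are bone marrow cells lacking lineage markers and carrying Sca1 and Kit, the population that holds stem cells and early multipotent progenitors. Cells also carried CD45.2 and were collected 10 weeks post-transplantation. Each library had its own genotype: a control, a library labelled Mll3 deleted, one labelled Mll4 deleted and one labelled Mll3/4 deleted. Mll3 and Mll4 are histone methyltransferases that act mainly at enhancers, and their genes are Kmt2c and Kmt2d. The allele, the Cre driver, the host and the number of mice per library are not given in the sources used here. Since each genotype has a single library, differences could not be set against a spread between replicates. No test was made, no p-value is given, and every interval is a 95% interval that covers counting error only.

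Most of these chains work in pairs. A ligand-specific alpha chain such as Il7r, Csf2ra or Il3ra binds its cytokine and joins a shared chain (Il2rg, also called the common gamma chain, Csf2rb, the common beta chain, or Il6st, also called gp130) that carries the signal to Janus kinases and STAT proteins. Csf3r, the G-CSF receptor, pairs with itself, and Ifngr1 binds interferon gamma and signals with Ifngr2. In bone marrow, Il7r marks early lymphoid commitment and is needed for B-cell development in the mouse, whereas Csf3r, Csf2ra and Csf2rb are associated with granulocytes and monocytes.

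Cells entered when their barcode had 1000 genes or more and no more than 10% of its UMIs (unique molecular identifiers, 1 per captured transcript) from mitochondrial genes. That left 4748 to 7274 cells and 50792614 to 120700343 UMIs per library. Levels are in CPM, the UMIs of a gene summed over the cells and scaled to a library total of 1000000. The share of barcodes kept was 62.2% in the Mll4-labelled library and 92.4 to 94.7% in the other 3. Pairs of libraries shared 7 to 14 kept barcodes. The check of the targeted genes was mixed: Kmt2c stood at 68.9, 35.3, 61.3 and 42.3 CPM in the control, Mll3-, Mll4- and Mll3/4-labelled libraries. Kmt2d stood at 24.6, 21.6, 22.6 and 25.4 in the same order, so it was not clearly lower where the label says Mll4 was deleted, and tags at the 3′ end need not lie in the deleted part. Libraries are therefore named by their labels throughout. Transcripts of the sorted markers were present in each library: Kit at 215 to 362 CPM, Ly6a (Sca1) at 93.4 to 255 and Ptprc (CD45) at 111 to 279. The cells also differed in type: 99.4% of the Mll3/4-labelled cells fell into clusters with B-lineage markers, and 20.7% and 20.6% of the Mll4-labelled cells into granulocyte-monocyte progenitor-like and monocyte/macrophage-like clusters. Summed marker lists moved with these. The 12 B-lineage markers stood at 63.4, 355, 69.5 and 13306 CPM in the control, Mll3-, Mll4- and Mll3/4-labelled libraries, with 0 of them at 0 UMIs in any. The 8 granulocyte-monocyte progenitor markers stood at 1028, 1279, 10332 and 49.0, with 1 of the 8 at 0 UMIs in the last. The 9 mast/basophil markers stood at 26.7, 12.3, 1721 and 3.92, with 1, 3, 0 and 6 of the 9 at 0 UMIs. The part of these differences in cell type in the library-wide values below was not tested.

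Sequence is shown for 2 reasons: to mark where counts of near-identical genes could mix, and to show the bases before the RefSeq start of the member with the largest difference. Csf2rb, which mouse cells use for GM-CSF, IL-3 and IL-5, and Csf2rb2, a mouse chain for IL-3 alone, share 2503 of 2628 aligned coding bases (95.2%). They lie on chromosome 15 of GRCm38 at 78325752 to 78353847 (plus strand) and 78282507 to 78305721 (minus strand). The 120 coding bases numbered 2515 to 2634 from the start codon show how alike they are, with the 6 differing bases in capitals and sequences taken from GENCODE M21 transcripts.
Csf2rb: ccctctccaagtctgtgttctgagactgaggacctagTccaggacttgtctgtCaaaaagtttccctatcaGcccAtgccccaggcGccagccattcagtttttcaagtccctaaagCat
Csf2rb2: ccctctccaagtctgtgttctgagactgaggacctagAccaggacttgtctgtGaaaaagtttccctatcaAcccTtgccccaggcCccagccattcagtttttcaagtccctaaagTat
Over whole transcripts, 8.43% of the 90-base windows of Csf2rb and 8.47% of those of Csf2rb2 occurred in the other gene without a mismatch. In the last 600 bases, where a 3′ library is read, the share was 0%. Reads with mismatches could still be split between the 2 genes, so the level of Csf2rb2 is uncertain.

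Il7r lies on the minus strand of chromosome 15 at 9505788 to 9530176 in GRCm38. The 150 bases before its RefSeq start (GRCm38.p6, chr15:9529877-9530026, minus strand) overlap no exon of GENCODE M21. They lie inside the gene as GENCODE places it, since its GENCODE start on this strand is 9530176, so they are not upstream of that start. Capitals mark 1 STAT-type match (TTCNNNGAA, first base at -142) and 1 match to an ETS core (GGAAGT or its reverse complement ACTTCC, first base at -49), both searched on both strands.
Il7r: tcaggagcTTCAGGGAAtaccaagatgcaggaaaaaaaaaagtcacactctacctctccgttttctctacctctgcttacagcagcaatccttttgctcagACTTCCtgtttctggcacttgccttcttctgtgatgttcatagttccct
The STAT-type letters occurred in 4.09% and the ETS letters in 13.6% of 32851 RefSeq promoters over the same 150 bases. RefSeq promoters were found for 8 of the 9 members. Over the 250 bases before the RefSeq start, the ETS letters occurred in 2 of these 8, Il7r and Il3ra, and the STAT-type letters in 2, Il7r and Csf2rb2. The shares of promoters were 19.8% and 7.04%, here of 32536 with a full and distinct 250-base sequence. Such matches describe letters and not bound sites.

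Across the 9 members, 1 was at least 2-fold higher and 0 were at least 2-fold lower in the Mll3-labelled library than in the control. The same thresholds were passed by 0.575% (higher) and 0.345% (lower) of 6084 genes whose mean over both libraries reached 20 CPM. In the Mll4-labelled library 5 members were higher and 0 lower, against 5.77% and 3.08% of 6046 genes. For the Mll3/4-labelled library 1 was higher and 4 were lower, against 7.53% and 8.75% of 5979 genes. The median log2 ratio of the 9 was -0.08, 1.14 and -0.73 in that order, with Csf2rb2 at 0 or at 3 UMIs alike in the last. All tested genes had medians of 0.10, -0.12 and -0.07. Of the 9 members, 4, 7 and 4 themselves reached the mean of 20 CPM in the 3 comparisons, which share the control library. Among those, 0, 4 and 1 were higher and 0, 0 and 1 lower, so the counts over all 9 and the shares of genes above that mean are not like for like. Il7r in the Mll3/4-labelled comparison reached the mean only through the library in which it was high. The same held in the Mll4-labelled comparison for Il7r, Csf2rb and Il3ra, at 5.16, 12.6 and 17.3 CPM in the control. Ifngr1 was above 20 CPM in the control as well (73.6). The count of 4 higher members there thus depends in part on the filter. Il7r was the member past 2-fold in all 3; it was joined by Csf2rb, Csf2rb2, Il3ra and Ifngr1, all higher, in the Mll4-labelled library. In the Mll3/4-labelled library Csf2rb, Csf2rb2, Csf3r and Ifngr1 were the 4 lower ones.

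**Figure D1:**
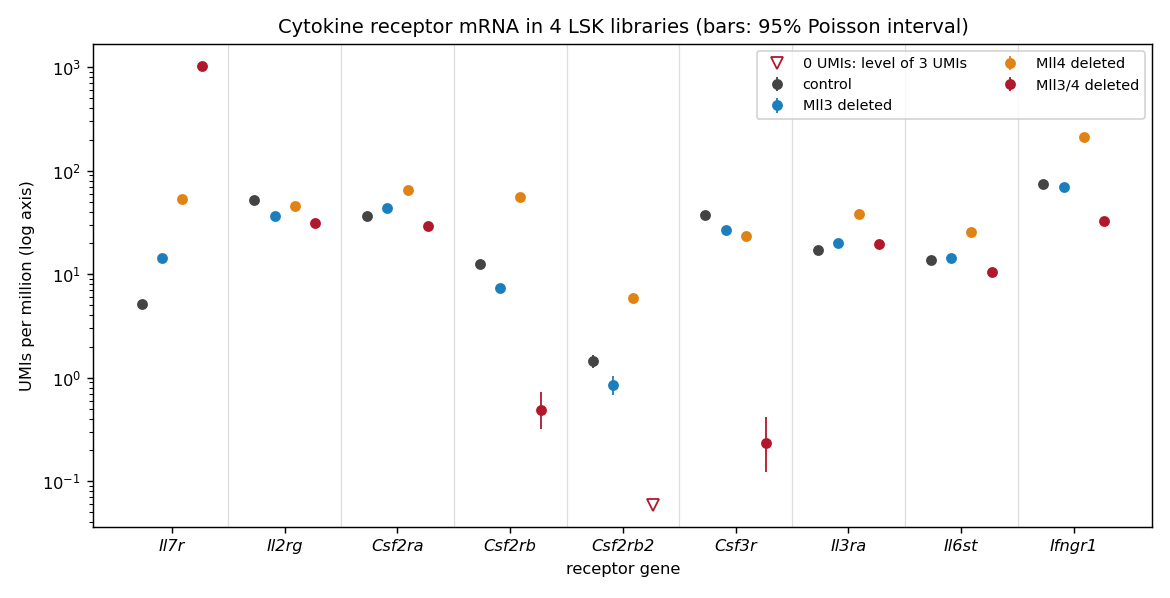
Level of each receptor gene (x axis) in UMIs per 1000000 (CPM) on a log axis (y axis), 1 point per library coloured by its label, with 95% Poisson intervals for counting error; the open triangle is the level of 3 UMIs for Csf2rb2, which had 0 UMIs in the Mll3/4-labelled library. Il7r runs from 5.16 (control) to 1020 (Mll3/4-labelled library), where Csf2rb (0.492) and Csf3r (0.236) are below 1 and Csf2rb2 had 0 UMIs.

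**Figure D2:**
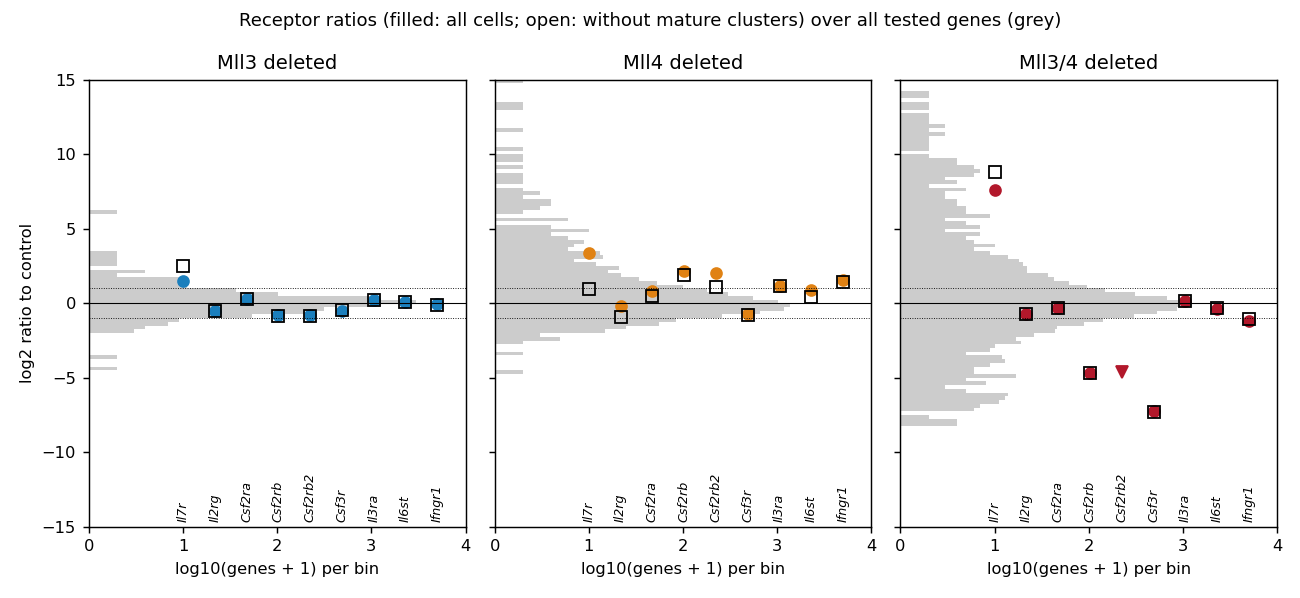
Log2 ratio to the control (y axis) of the 9 members in the 3 other libraries, as filled circles over all cells and open squares without the clusters named for mature cell types, set side by side over grey bars that count all tested genes per bin of 0.25 (x axis, log10 of genes + 1). Dotted lines mark 2-fold and the filled triangle is the ratio at 3 UMIs for Csf2rb2. Il7r in the Mll4-labelled library drops from 3.35 to 0.95 without mature clusters, while Ifngr1 stays near 1.5. The cells left still include granulocyte-monocyte progenitor-like cells, 992 of 2511 in the Mll4-labelled library and 92 of 7091 in the control. The part of these cells in the ratios was not tested.

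Among the alpha chains, Il7r, the receptor for IL-7 and, with Crlf2, for TSLP, differed most. It stood at 5.16, 14.4, 52.8 and 1020 CPM (616, 1523, 6376 and 51791 UMIs) in the control, Mll3-, Mll4- and Mll3/4-labelled libraries. Every step in that order is larger than its counting interval. The log2 ratios to the control were 1.48 (1.34 to 1.62), 3.35 (3.24 to 3.48) and 7.62 (7.51 to 7.74), the last a 198-fold difference. After each cell was thinned to 3000 UMIs, so that depth is equal, Il7r was detected in 1.18%, 2.76%, 10.8% and 84.7% of cells in the same order. Unthinned shares were 2.19%, 6.06%, 15.6% and 96.2%. As a background, thinned granulocyte-monocyte progenitor-like cells, which should lack Il7r, had it in 0 of 91 control, 1 of 106 Mll3-labelled and 3 of 977 Mll4-labelled cells.

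The cells that held the Il7r transcripts were not the same type in each library. Levels summed over a library cannot tell more cells of a type from more RNA per cell, so they were also taken within clusters, which were named from marker genes and built without the 9 members. In the control, 62 innate lymphoid/T-like cells held 56.3% of the Il7r UMIs, at 561 CPM. In the Mll3-labelled library, 156 B-lineage-like cells held 45.1% (169 CPM), 247 lymphoid-primed-like cells 14.9% (66.2) and 101 innate lymphoid/T-like cells 14.8% (150). In the Mll4-labelled library, 363 innate lymphoid/T-like cells held 79.5%, at 1572 CPM. With finer clustering (resolution 1) this class split. A cluster led by Stab2 and Cxcr6 held 49 control, 23 Mll3- and 354 Mll4-labelled cells, and a cluster led by Cd3g and Trbc2 held 15, 83 and 9. Innate lymphoid/T-like levels here and below thus set different mixes of cells side by side. The 4719 B-lineage-like cells of the Mll3/4-labelled library stood at 1035 CPM.

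Within a class the level also differed between libraries. B-lineage-like cells had 1035 CPM of Il7r in the Mll3/4-labelled library and 169 in the Mll3-labelled one, a log2 ratio of 2.62 (2.51 to 2.73). Different clusters hold these cells: cluster 13 in the Mll3-labelled library, and clusters 17 (1196 CPM) and 18 (605 CPM) in the Mll3/4-labelled library. The control had 15 B-lineage-like cells, too few for a level. Thinned, 85.1% of the Mll3/4-labelled and 38.5% of the Mll3-labelled B-lineage-like cells had an Il7r UMI. Of the 29 Mll3/4-labelled cells outside the B-lineage-like class 5 had an Il7r UMI, against 4561 of 4719 B-lineage-like cells (96.7%). Among those 29 cells, 3 were mature B/plasma-like. Lymphoid-primed-like cells stood at 23.0 in the control and 66.2 in the Mll3-labelled library, and at 10.7 and 38.4 when clusters were split more finely. The 12 B-lineage markers stood at 103 and 417 CPM in the same cells, and their part in the difference was not tested. HSC-like cells stood at 0.309 (4 UMIs) and 1.36 (27 UMIs).

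In the Mll4-labelled library Il7r was also seen in mast/basophil-like cells (97.6 CPM, 440 UMIs) and monocyte/macrophage-like cells (27.5). The 9 summed markers of innate lymphoid and T cells stood there at 1386 CPM in innate lymphoid/T-like cells, 81.6 in mast/basophil-like, 34.1 in monocyte/macrophage-like, 26.9 in granulocyte-monocyte progenitor-like and 69.6 in unnamed cells. For each UMI of those markers there were 1.13, 1.20, 0.806, 0.109 and 0.0470 Il7r UMIs in these classes. The part of free RNA in these values was not tested. Without the clusters named for mature types the Mll4-labelled library had 4.37 CPM of Il7r and the control 2.26, a log2 ratio of 0.95, under 2-fold. The cells left still included granulocyte-monocyte progenitor-like cells, 992 of 2511 Mll4-labelled and 92 of 7091 control cells. In the Mll3-labelled library the ratio without the mature clusters was 2.47, and with equal weight per cell it was 0.61, again under 2-fold, as it was with thinned cells.

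Il3ra, the alpha chain for IL-3, stood at 17.3, 19.8, 38.0 and 19.5 CPM in the control, Mll3-, Mll4- and Mll3/4-labelled libraries. Only the Mll4-labelled library was 2-fold apart, with a log2 ratio of 1.14 (1.06 to 1.21). It was highest in mast/basophil-like cells of that library (75.6) and in granulocyte-monocyte progenitor-like cells, at 35.2, 53.4 and 58.0 in the control, Mll3- and Mll4-labelled libraries. The log2 ratio within the latter class was 0.71 (0.42 to 1.04) for the Mll4-labelled library, against 1.14 over whole libraries. This class joined cells of the 3 libraries (92, 106 and 992) at resolutions 0.3 and 0.6. At resolution 1 it held 5, 1 and 979, so finer clustering put them apart, and every ratio given within it here and below exists at the coarser resolutions only.

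Csf2ra, the alpha chain for GM-CSF, stood at 36.7, 44.0, 65.3 and 29.5 CPM in the control, Mll3-, Mll4- and Mll3/4-labelled libraries. No ratio reached 2-fold: the log2 values were 0.26, 0.83 and -0.32. With equal weight per cell or thinned cells the Mll4-labelled ratio passed 2-fold, at up to 1.13. Within granulocyte-monocyte progenitor-like cells, as joined at the coarser resolutions, Csf2ra stood at 71.1, 74.4 and 73.1 in the control, Mll3- and Mll4-labelled libraries. The log2 ratio there was 0.04 (-0.17 to 0.26) for the Mll4-labelled library. Monocyte/macrophage-like cells of the Mll4-labelled library had 198 and dendritic-like cells 126, and in the Mll3-labelled library dendritic-like cells had 163.

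Of the shared chains, Csf2rb showed opposite differences in the 2 libraries with an Mll4 label. It stood at 12.6, 7.43, 55.3 and 0.492 CPM (1500, 787, 6674 and 25 UMIs) in the control, Mll3-, Mll4- and Mll3/4-labelled libraries. The log2 ratios were -0.76 (-0.89 to -0.63), 2.14 (2.06 to 2.22) and -4.65 (-5.31 to -4.11), the last a level 25.5-fold lower. Thinned shares of cells with a UMI were 3.60%, 2.14%, 16.7% and 0.0424%, the last being 2 of 4715 cells, too few for a ratio in thinned cells. Of the 25 UMIs in the Mll3/4-labelled library, 20 came from the 29 cells outside the B-lineage-like class, and the 4719 B-lineage-like cells held the other 5.

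Csf2rb of the Mll4-labelled library was then read within 1 class. Granulocyte-monocyte progenitor-like cells stood at 32.5, 25.9 and 73.7 in the control, Mll3- and Mll4-labelled libraries, a log2 ratio of 1.17 (0.87 to 1.51) for the last, at the coarser resolutions only. This class held 52.8% of that library's Csf2rb UMIs. Mast/basophil-like cells had 151 and monocyte/macrophage-like cells 109. Without all mature clusters, but with granulocyte-monocyte progenitor-like cells still included, the ratio to the control was 1.88. Unnamed clusters 5 and 16, which are nearly all Mll4-labelled cells, stood at 13.7 each, near the 12.6 of the whole control. HSC-like cells stood at 10.8 in the control and 5.73 in the Mll3-labelled library, a log2 ratio of -0.91 (-1.28 to -0.55). The limit from finer clustering given above for that class holds here too.

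Csf2rb2 followed Csf2rb at a lower count, within the doubt about near-identical reads. Its 172, 89 and 708 UMIs in the control, Mll3- and Mll4-labelled libraries made 1.44, 0.840 and 5.87 CPM, and the Mll3/4-labelled library had 0 UMIs. With 3 counts as what a count of 0 allows, up to 0.0632% of its 4748 cells could have had a UMI, which does not limit the share of cells that express the gene. The log2 ratios were -0.77 (-1.16 to -0.40) and 2.02 (1.78 to 2.27) in the first pair. A level of the same 3 counts over the library would be 24.4-fold lower than in the control, with the control count taken as exact. The exact 95% interval of the log2 ratio reached up to -4.30, which is a smaller difference than that. In the Mll4-labelled library the level was 41.9 in mast/basophil-like cells and 17.8 in monocyte/macrophage-like cells, which together held most of its UMIs, at 26.7% and 30.8%. Without mature clusters the log2 ratio in that library was 1.07.

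Il2rg, the common gamma chain, was 2-fold apart from the control in 0 of the 3 libraries. It was lower in each when UMIs were summed, and in the Mll4-labelled library the sign flipped to 0.50 with equal weight per cell and also flipped with thinned cells. It stood at 51.7, 36.9, 45.5 and 31.2 CPM in the control, Mll3-, Mll4- and Mll3/4-labelled libraries, with log2 ratios of -0.49, -0.19 and -0.73. Il7r, its partner in the IL-7 receptor, was higher in all 3. Within B-lineage-like cells, by contrast, both were higher in the Mll3/4-labelled than in the Mll3-labelled library: Il2rg stood at 31.2 against 14.0, a log2 ratio of 1.15 (0.78 to 1.57). Cluster 17 had 36.9 (35.0 to 39.0) and cluster 18 had 16.0 (13.9 to 18.3), and the interval of the latter overlaps that of the Mll3-labelled cells (10.6 to 18.1). Innate lymphoid/T-like cells had 191, 69.0 and 281 in the control, Mll3- and Mll4-labelled libraries, and HSC-like cells had 66.6 in the control and 57.0 in the Mll3-labelled library. For both classes the limit from finer clustering given above holds. Of thinned cells with an Il7r UMI, 32 of 86, 22 of 168, 227 of 505 and 408 of 3994 also had an Il2rg UMI in the control, Mll3-, Mll4- and Mll3/4-labelled libraries. These are 37.2%, 13.1%, 45.0% and 10.2%, beside 15.3%, 12.2%, 17.2% and 9.93% of all thinned cells. Of the 227 in the Mll4-labelled library, 181 were innate lymphoid/T-like.

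Il6st, the shared chain for IL-6, IL-11 and LIF, stood at 13.6, 14.4, 25.7 and 10.5 CPM in the same order. No ratio reached 2-fold: the log2 values were 0.09 (-0.02 to 0.19), 0.92 (0.83 to 1.01) and -0.37 (-0.52 to -0.23). The first changed sign under TMM and median-of-ratios scaling. The Mll4-labelled ratio was 0.43 without mature clusters and 1.30 with thinned cells. Dendritic-like cells of the Mll4-labelled library had 118 and those of the Mll3-labelled one 51.4, and HSC-like cells had 20.2 in the control and 20.5 in the Mll3-labelled library.

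Csf3r, the receptor for G-CSF, was lower in each of the 3 libraries. It stood at 37.7, 26.6, 23.3 and 0.236 CPM (4495, 2820, 2817 and 12 UMIs) in the control, Mll3-, Mll4- and Mll3/4-labelled libraries. Only the last passed 2-fold, with a log2 ratio of -7.26 (-8.27 to -6.51), a level 159-fold lower. The others were -0.50 (-0.57 to -0.43) and -0.69 (-0.76 to -0.62). Thinned cells had a Csf3r UMI in 10.2%, 7.30%, 6.70% and 0.106% of cases. B-lineage-like cells of the Mll3/4-labelled library, which should lack this receptor, had a thinned share of 0.0213% and 2 of the 12 UMIs. The 29 other cells held the remaining 10.

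The lower Csf3r of the Mll4-labelled library stood beside higher markers of granulocyte-monocyte progenitors, cells in which the gene is usually active: 10332 CPM against 1028, with all 8 markers at 20 CPM or more. Their part in the result was not tested. Within granulocyte-monocyte progenitor-like cells Csf3r stood at 42.0, 34.1 and 21.5 in the control, Mll3- and Mll4-labelled libraries, a log2 ratio of -0.97 (-1.25 to -0.67) for the last, again at the coarser resolutions only. Monocyte/macrophage-like and neutrophil-like cells of the Mll4-labelled library had 47.7 and 44.9. Unnamed cluster 0, the largest of the control, had 47.6 there and 52.7 in the Mll3-labelled library. Innate lymphoid/T-like cells had 2.48 to 11.3 in the 3 libraries with 50 or more of them.

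Ifngr1, the ligand-binding chain for interferon gamma, stood at 73.6, 69.8, 213 and 32.9 CPM in the control, Mll3-, Mll4- and Mll3/4-labelled libraries. The log2 ratios were -0.08, 1.53 and -1.16 (-1.24 to -1.09), so it was 2-fold apart in opposite directions in the last 2. Thinned shares were 19.5%, 18.3%, 40.3% and 10.5%. It varied widely by class: granulocyte-monocyte progenitor-like cells had 221, 258 and 309 in the control, Mll3- and Mll4-labelled libraries, while HSC-like cells had 68.2 in the control and 62.5 in the Mll3-labelled library. The highest class level was 509, in control innate lymphoid/T-like cells. Monocyte/macrophage-like cells of the Mll4-labelled library had 450 and B-lineage-like cells of the Mll3/4-labelled library 32.7. Within granulocyte-monocyte progenitor-like cells the log2 ratio of the Mll4-labelled library was 0.48 (0.36 to 0.61) at the coarser resolutions, against 1.53 over the whole library. In unnamed clusters 5 and 16 it stood at 63.8 and 58.2, below the whole control.

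**Figure D3:**
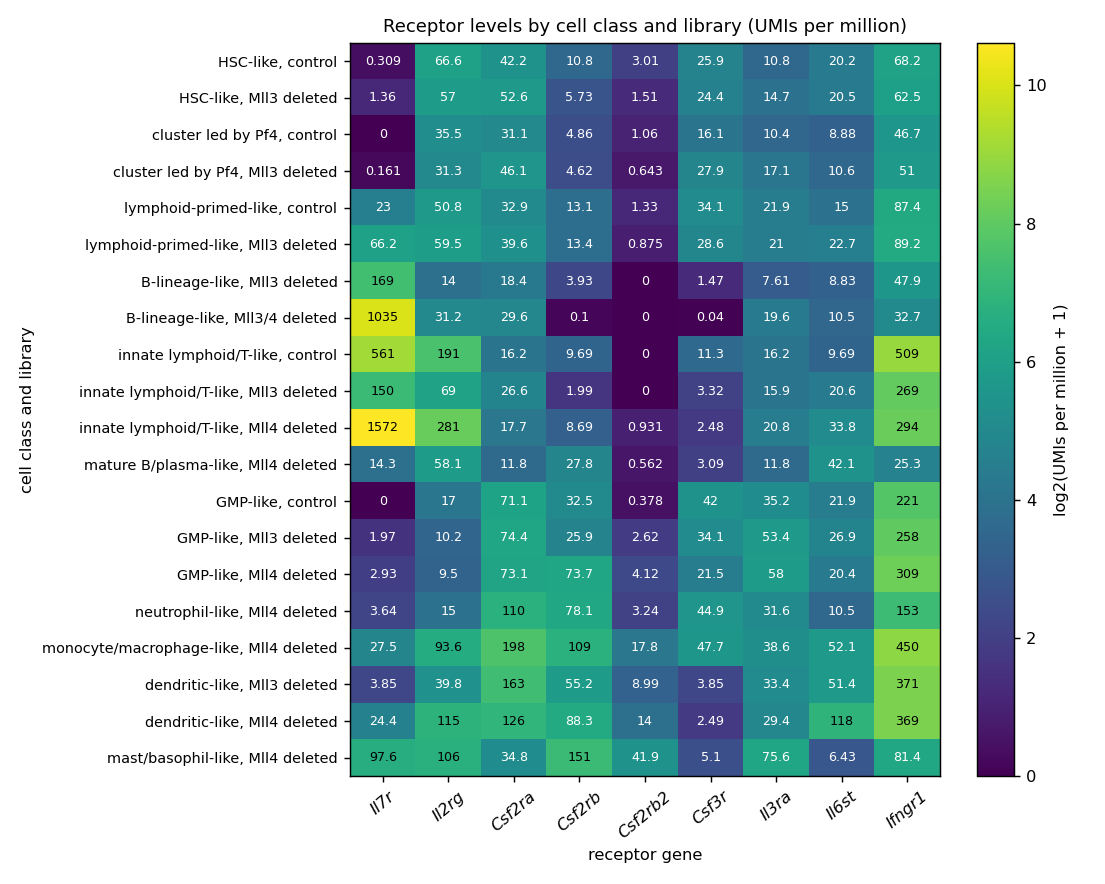
Level of the 9 receptor genes (columns) in CPM within each cell class and library with at least 50 cells (rows), printed in each cell and coloured as log2 of the level + 1. Il7r is high in lymphoid classes (1572 in Mll4-labelled innate lymphoid/T-like cells), and Csf2rb and Csf2rb2 peak in mast/basophil-like cells (151 and 41.9).

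The antibodies gave a second view that did not use RNA clusters. Of the 6 antibodies, CD150, CD48 and CD135 set the gates. Cells without CD135 made 4 gates: HSC with CD150 alone, MPP1 with neither CD150 nor CD48, MPP2 with both and MPP3 with CD48 alone. Cells with CD135 made the MPP4 gate where CD150 was absent and the CD150+CD135+ gate where it was present. Gate thresholds split a continuous signal, and gate names describe the antibodies and not the cell type by RNA. The HSC gate held 351 Mll4-labelled and 198 Mll3/4-labelled cells. By RNA cluster, only 4 and 1 cells of these whole libraries were HSC-like, and 4719 of the 4748 Mll3/4-labelled cells were B-lineage-like. Cells of the HSC gate had Il7r at 0.0877, 0.131, 2.02 and 1357 CPM in the control, Mll3-, Mll4- and Mll3/4-labelled libraries. Across all 6 gates of the Mll3/4-labelled library Il7r was between 847 (MPP4) and 1357 (HSC). With uncentred counts its HSC and MPP2 gates held 19 and 6 cells, too few for a level, and the other 4 gates stood at 978 to 1140. In the MPP4 gate, the lymphoid-leaning one, the control had 18.3, the Mll3-labelled library 61.2 and the Mll4-labelled 62.9. Uncentred, the control had 6.23 there and the Mll4-labelled library 50.7, both below their MPP3 gates (9.66 and 74.4), and the Mll3-labelled library was also highest in MPP3 (46.4), so in the control and the Mll3-labelled library which of the 2 gates is higher depends on the antibody scale.

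Csf3r in the Mll3/4-labelled library was at most 4.06 in any gate (MPP2, 4 UMIs). In the Mll4-labelled library the HSC and MPP1 gates showed lower Csf3r, at 8.31 against 22.3 in the control (log2 -1.41) and 9.29 against 36.5 (log2 -1.96). With uncentred antibody counts these were -1.18 and -1.64. Il2rg was also lower in both gates, at 23.9 against 49.6 and 29.6 against 67.1, while in the MPP4 gate it was higher, at 70.4 against 52.3. Ifngr1 of the Mll4-labelled library was above the control in 3 of its 5 gates with at least 100 cells. Of these, 2 passed 2-fold, with 246 against 77.3 in MPP3 and 232 against 83.6 in MPP4, and MPP2 had 125 against 69.9. In its HSC and MPP1 gates Ifngr1 was slightly lower than the control, at 48.5 against 59.0 and 64.3 against 75.0. Csf2rb passed 2-fold in 3 of the 5 gates, MPP2, MPP3 and MPP4, at 65.5 against 14.0 in MPP3. It was 6.39 against 8.24 in the HSC gate and 12.2 against 13.3 in MPP1, where uncentred counts turned the sign (log2 0.47). The MPP3 gate holds 3306 of the 4793 cells of that library, and 2069 with uncentred counts.

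**Figure D4:**
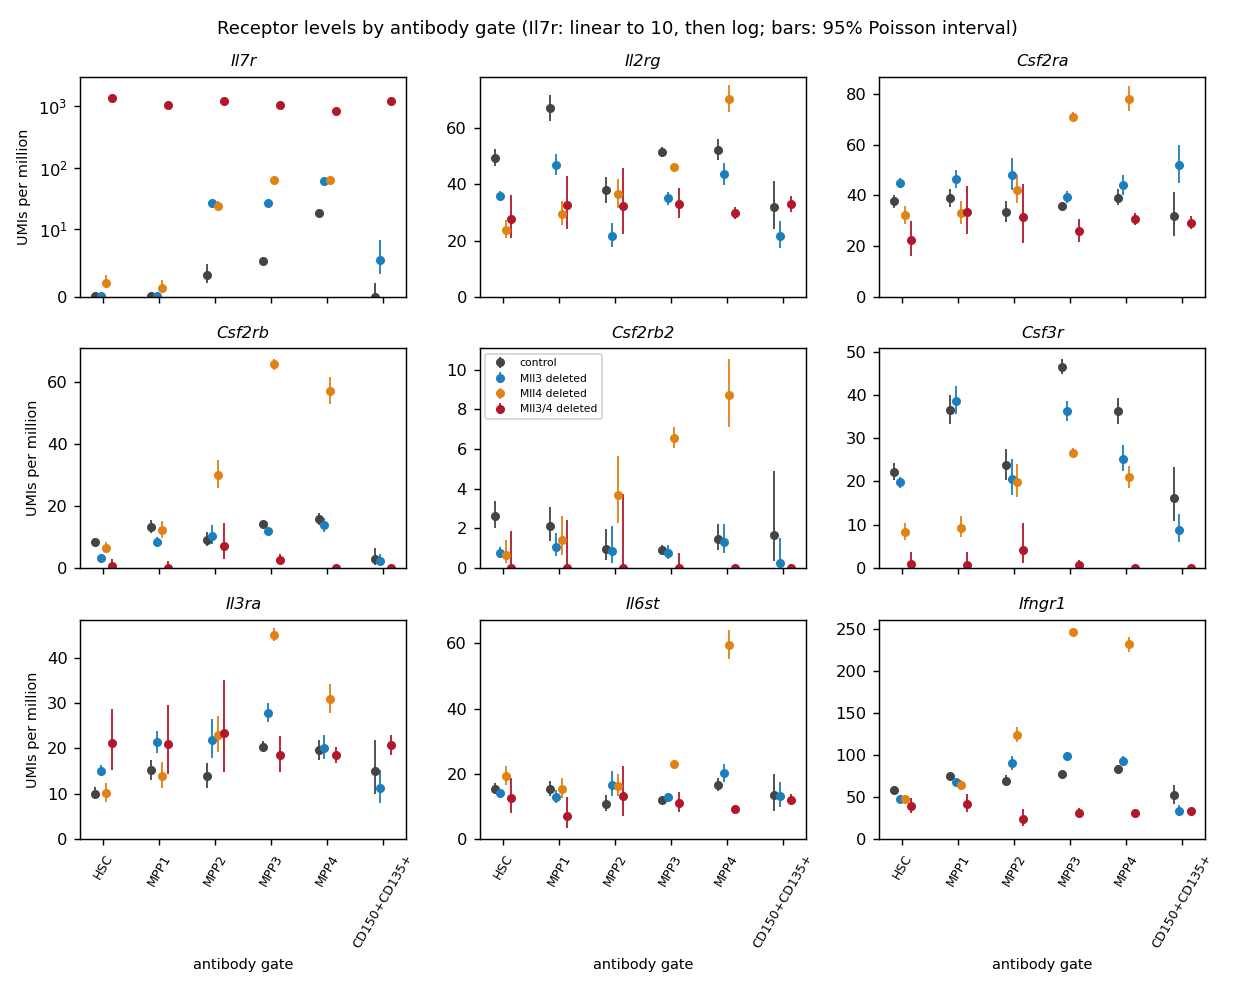
Level of each receptor gene in CPM (y axis; Il7r is linear to 10 and then log) in 6 antibody gates set on centred counts (x axis), 1 point per library with 95% Poisson intervals; gates with under 100 cells are left out. Il7r of the Mll3/4-labelled library lies at 847 to 1357 in every gate, and Ifngr1 of the Mll4-labelled library exceeds the control in MPP3 and MPP4 but not in HSC. Gate names describe the antibodies and not the cell type by RNA.

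Per cell, thinned to 3000 UMIs, a mean of 0.697, 0.644, 1.32 and 1.23 of the 9 members was detected in the control, Mll3-, Mll4- and Mll3/4-labelled libraries. At least 3 members were detected in 2.87%, 2.20%, 15.1% and 4.48% of cells. Most of the mean in the last was Il7r, which 84.7% of its cells had. Il7r and Csf3r were detected in the same cell in 3 of 86 Il7r-positive control cells, 1 of 168 in the Mll3-labelled and 11 of 505 in the Mll4-labelled library. Of all thinned cells in these libraries, 10.2%, 7.30% and 6.70% had a Csf3r UMI. In the Mll3/4-labelled library only 5 of 4715 thinned cells had one.

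Over 30 units, each a cluster in 1 library with at least 50 cells, the members' levels were set against each other and against 6173 genes. Units of 1 library share its depth and its cell makeup, so the values only describe. Csf2rb followed Csf2rb2 (Pearson r = 0.82) and Il3ra (0.76) most closely, and Il7r ran against Csf3r (-0.71). The genes most like Il7r were Clec2i (0.92), Ets1 (0.91), a transcription factor, and Sdc4 (0.87). Those most like Csf2rb were Gpr141 (0.90), Tyrobp (0.90), an adaptor of myeloid receptors, and Lyn (0.89), a Src-family kinase. Csf3r was most like Plppr3 (0.86) and Kcnk12 (0.84), and Ifngr1 most like Ms4a6b (0.88), Ms4a4c (0.87) and Cndp2 (0.84). Il3ra was most like Fes (0.86), Hdc (0.81), which makes histamine, and Fuca2 (0.81). The nearest genes of the other 4 members were Fam120b for Il2rg (0.90), Asah1 for Csf2ra (0.92), Cx3cr1 for Csf2rb2 (0.90) and Ciita for Il6st (0.83).

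The genes around these receptors in the pathway were read from 5 lists. Among 12 partner chains, 3 reached the mean of 20 CPM in the Mll3-labelled comparison and 0 were 2-fold apart (median log2 0.25). In the Mll4-labelled comparison 5 did so: Il6ra, which pairs with Il6st, was higher (10.1 to 40.2 CPM), and Il21r (56.6 to 17.8) and Il11ra1 (56.8 to 27.8) were lower, with a median of -0.82. In the Mll3/4-labelled comparison Ifngr2, the partner of Ifngr1, was higher (19.8 to 70.0), where Ifngr1 itself was lower, and Il11ra1 was lower (8.45), with 4 reaching the mean and a median of -0.28.

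Among 23 other cytokine receptors, 9, 13 and 10 reached the mean in the 3 comparisons. Of these, 0, 4 and 2 were higher and 0, 1 and 2 were lower. All 4 higher ones of the Mll4-labelled comparison were under 20 CPM in the control and reached the mean only through the library in which they were high. The same held for Prlr in the Mll3/4-labelled comparison. The Mll4-labelled library had Il1rl1, the IL-33 receptor of mast cells, at 95.8 (control 0.930), Csf1r, the M-CSF receptor, at 70.4 (control 1.90), and Tnfrsf1b at 35.4 (control 11.1). The remaining gene of the 4, named after its values were seen, was Tgfbr1 at 36.8 (control 16.0). Prlr, the prolactin receptor, stood at 455 in the Mll3/4-labelled library (control 0.243), and Ifnar1 at 62.9 (control 30.4). Flt3 was lower there (23.5, control 64.0). The list medians were -0.03, 0.20 and -0.49.

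Of 11 Janus kinases and STATs, 0 of 9 and 0 of 8 that reached the mean were 2-fold apart in the Mll3- and Mll4-labelled comparisons. In the Mll3/4-labelled library 3 of 8 were lower: Stat5a, which acts below IL-7 and many others, at 12.8 (control 44.4), Stat3 at 32.7 (76.7) and Stat5b at 16.9 (34.9). The list medians were -0.12, 0.01 and -0.12. Of 20 feedback inhibitors and targets of STAT signalling, 12, 12 and 13 reached the mean. Cish, a STAT5-induced inhibitor, was higher in the Mll3-labelled library (35.3 against 12.9) and 0 of the list were 2-fold apart in the Mll4-labelled one. In the Mll3/4-labelled library 4 were higher and 4 lower. Socs2 stood at 362 (control 25.2), the survival gene Bcl2l1 at 64.5 (9.66) and Cish at 44.0, while the phosphatase gene Ptpn6 stood at 6.71 (102), Ccnd2 at 41.9 (213) and Pim1 at 52.7 (213). The remaining 2, named after their values were seen, were Ccnd3 at 208 (93.2) and Bcl2 at 20.4 (74.6). The list medians were 0.20, 0.13 and 0.01. The 16 ligands of the members were scarce: 1, Il15, which is named here after its values were seen, reached the mean in the Mll3-labelled comparison, 0 did in the others, and 0 were 2-fold apart. As with the members, Il6ra, Ifngr2, Bcl2l1 and Cish were under 20 CPM in the control and reached the mean only through the library in which they were high. Others, such as Stat5a and Ptpn6, reached it only through the control. The counts in these lists thus depend in part on the filter. These shares stand beside the background given above, and nothing particular to any list was tested.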

How the data were processed

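UMIs were counted by the authors with Cell Ranger 6.1.1 on mm10, per the submitters' processing notes; the deposited values are raw counts of UMIs and of antibody tags per barcode (10x 3′ chemistry, per the labels' protocols). The filter that chose the barcodes and the gene annotation are not given in the sources used here. Coordinates are from GENCODE M21 (GRCm38).

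Groups came from sample titles. Counts were summed over cells that passed the filter, scaled to a total of 1000000 (CPM), and log2 ratios taken after adding 0.5 UMIs. Intervals are exact at the 95% level: Poisson for levels, conditional for ratios and Clopper-Pearson for shares. Cells were clustered with scanpy 1.11.5 (1996 variable genes without the members, 30 components, 15 neighbours, Leiden resolution 0.6), giving 19 clusters, 14 named from fixed markers. A cluster led by Pf4 passed as megakaryocyte-like, but its top 10 genes held 1 marker, Pf4, after which it is called. The monocyte/macrophage-like cluster also raised 7 of 9 mast/basophil markers. Doublets stayed in: Scrublet's threshold called 1, 1, 169 and 0 cells, under 0.5% in 3 libraries, where the caller did not work; an alternative left out the highest scores. Thinning to 3000 UMIs left out 14, 17, 134 and 33 cells (control, Mll3-, Mll4- and Mll3/4-labelled). Alternatives used edgeR 4.0.16 TMM factors, median-of-ratios factors, other totals, filters and cell weights. The script was tested on simulated data.

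Named genes were the 9 members, Kmt2c and Kmt2d, the genes past 2-fold with the 3 highest and 3 lowest ratios per list, and the 3 genes most alike per member by Pearson r of log2(CPM + 10). The members and lists were chosen with earlier results of these data known. Some genes that this rule names are not reported here.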

Additional observations from a re-analysis of the deposited data

How the results depend on the processing

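No paired analysis was possible because each genotype has 1 library, so no replicate numbers are shared and no replicate could be left out. Member counts were recomputed under 9 alternatives per library, and 52 of 54 values stayed within 1.5 times the reported count. The exceptions were the members at least 2-fold higher in the Mll3-labelled library, 0 with equal weight per cell and 0 with thinned cells, against 1. Of 243 recomputed log2 ratios 171 stayed within the interval of counting error and 72 moved; 0 changed the sign of a member past 2-fold. The count of all genes past 2-fold moved with the minimum mean, which sets how many genes are tested. At 5 and 100 CPM it was 126 and 4 higher and 73 and 8 lower for the Mll3-labelled library (35 and 21 at 20). It was 695 and 106 higher and 446 and 30 lower for the Mll4-labelled (349 and 186), and 896 and 134 higher and 1186 and 81 lower for the Mll3/4-labelled (450 and 523). TMM scaling shifted log2 ratios by -0.10, 0.04 and 0.07, and median-of-ratios scaling by -0.10, 0.05 and 0.11. Of 72 shares of cells 67 moved with the thinning depth, of 288 levels in classes 33 moved with the cluster resolution, and of 171 levels in gates 62 moved with the antibody scale. At resolution 0.3, Il6st in innate lymphoid/T-like cells moved from 9.69 to 47.4 CPM in the control and from 33.8 to 109 in the Mll4-labelled library. The cluster of that name at 0.3 also raised 5 of 6 stroma/endothelium markers. At 0.6 a separate stroma/endothelium-like cluster held 27 cells. Members with few UMIs, such as Csf2rb2 in most classes, have wide intervals at this depth. The thinned ratio of Csf2rb in the Mll3/4-labelled library (-8.54) came from a second random thinning, in which 0 UMIs were drawn, so it rests on the added 0.5 UMIs and measures nothing.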
